A study of Mus musculus with 15 samples.

Results

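Microglia, the resident macrophages of the brain, were compared at a chronic stage of stroke, 28 days after transient occlusion of a cerebral artery, with microglia of sham-operated mice. The comparison was chosen by its labels: 1 wild-type day 28 library and 1 wild-type sham library, 2 of the 15 libraries of the series, with all 24421 genes of the table. Both came from wild-type male C57BL/6J mice aged 8 to 24 weeks. In the stroke mice a filament blocked the origin of the middle cerebral artery for 60 min and was then withdrawn. The sham mice had the surgery but no blockage. Forebrain cells were stained for CD45, CD11b and CD31 and sorted as cells with intermediate CD45 and CD11b. How many mice went into a library, and from which hemisphere the cells came, is not given in the sources used here. Wild-type libraries of days 1, 6 and 14 after stroke, also 1 each, are set beside both where they help to place a value.

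Microglia live in the brain for long periods, need signals through the receptor Csf1r, and scan the tissue with processes that carry the ADP receptor P2ry12. After injury they lower this resting program and can take up debris, release cytokines and present antigen. Blood monocytes, dendritic cells and granulocytes can enter injured brain, and macrophages and dendritic cells also live in the meninges and the choroid plexus. Antigen for CD4 T cells is shown on major histocompatibility complex (MHC) class II molecules, whose genes in most cells that have them require the coactivator Ciita. Surface CD45 and CD11b separate microglia from many, but not all, of these other cells.

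With 1 library per group the difference between day 28 and sham has no replicate check, so no p-value is given. Levels are in CPM (counts per 1e6 counts, scaled by TMM), and a difference is the log2 ratio of CPM plus 1, day 28 over sham. A gene is called higher or lower here when the log2 ratio was at least 2 in size (a 4-fold difference) and 1 of both libraries had 20 CPM or more. List members at that level are the considered ones, while a list's median is taken over its members with 5 CPM or more in 1 of both libraries. In a bulk library, fewer cells of a type and less RNA per cell cannot be told apart.

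The day 28 library held 22.7 M counts in 9886 genes, against 52.6 M counts in 16009 genes in sham and between 11823 and 17321 genes with a count in the libraries of days 1, 6 and 14. Of 6307 genes with 20 CPM or more in sham, 194 had no count on day 28, 39 had none on day 14, and 0 had none on days 1 and 6. Of the 8412 genes with no count in sham, 14 reached 20 CPM on day 28. A single count was worth 0.0439 CPM on day 28 and 0.0187 CPM in sham, so a zero on day 28 allows a level of up to 0.132 CPM (3 counts), which covers counting error only. Since the day 28 library is itself 1 of the groups, no result could be computed without it.

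**Figure D1:**
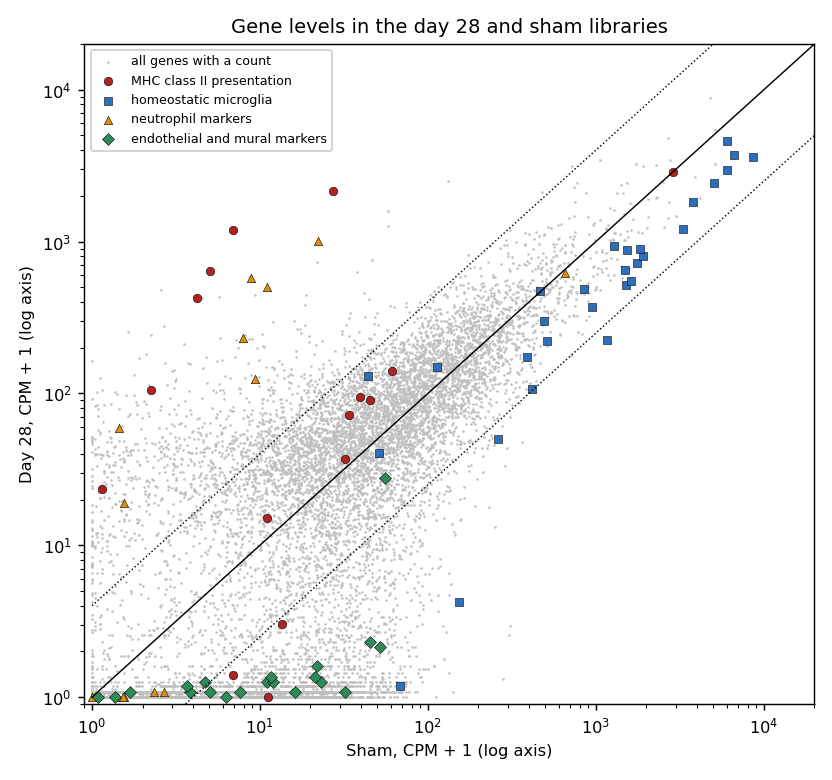
Level of each gene in sham (x axis, CPM + 1, log axis) against day 28 (y axis, CPM + 1, log axis), 1 library each, with 4 gene lists marked. The solid line marks equal levels and the dotted lines a 4-fold difference. Endothelial and mural markers lie near the bottom, neutrophil and MHC class II genes lie partly above the upper dotted line, and most homeostatic genes lie just under the solid line.

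Of 7616 genes with 20 CPM or more in 1 of both libraries, 845 were called higher on day 28 (11.1%) and 1158 lower (15.2%). These are the background shares for every list below. Against the same sham library the size rule called 5.59% of genes higher and 2% lower on day 1, 6.25% and 0.0846% on day 6, and 12.9% and 6.82% on day 14. How a gene could be called depended on its level. Among genes at 5 to 20 CPM in sham, 55.1% were lower on day 28 by a log2 ratio of 2 or more and 32.1% had no count. Among those at 20 to 50 CPM the lower share was 30.6%, at 50 to 100 CPM it was 15.8%, at 100 to 500 CPM it was 5.01%, and at 500 CPM and above 1 of 243 genes was lower. With 100 CPM or more required in 1 of both libraries, 226 of 2821 genes were higher (8.01%) and 89 lower (3.15%). Lower calls were mostly of genes with modest counts: 1069 of the 1158 lower genes (92.3%) had under 100 CPM in sham. Such levels were common among the 6307 genes with 20 CPM or more in sham. Of these, 2638 were at 20 to 50 CPM and 1668 at 50 to 100 CPM. On both day 1 and day 6, 869 of the 1158 lower genes were at 20 CPM or more. The share of all genes at that level on both days was not computed. The part of the low gene detection of this library in the lower calls was not tested.

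**Figure D2:**
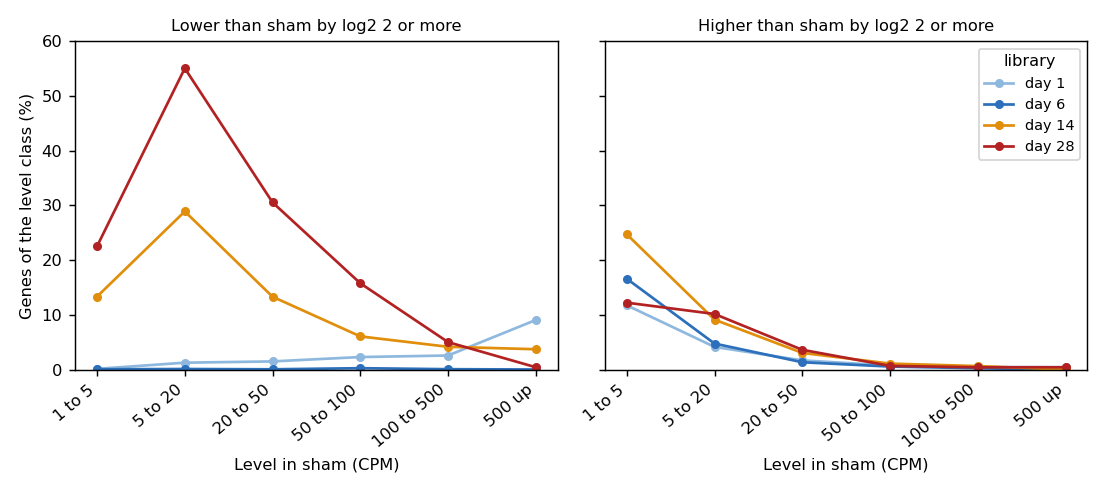
Share of genes (y axis, %) lower (left) or higher (right) than sham by a log2 ratio of 2 or more, by level in sham (x axis, CPM), 1 line per library. On day 28 the lower share is 55.1% at 5 to 20 CPM and 5.01% at 100 to 500 CPM, while the day 6 line stays at the bottom of the left panel and the day 1 line is highest in the class of 500 CPM and up.

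The higher calls had another make-up. Of the 845 higher genes, 397 (47.0%) were under 5 CPM in sham, 226 (26.7%) were at 100 CPM or more on day 28, and 746 (88.3%) had their highest level of the 5 wild-type libraries on day 28. The size rule picks genes by a high day 28 level, so this last share was in part set by the rule. The higher genes had a median longest annotated transcript of 2803 bases, against 3726 bases for the lower genes and 3786 bases for all genes considered. Their median GC content of 49.6% was close to the 48.7% of all genes considered.

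Genes of MHC class II antigen presentation held some of the largest ratios of all genes. The list held 17 genes, of which 16 were in the table, 12 were at 20 CPM or more in 1 of both libraries, 6 were called higher (background 11.1%) and 0 lower. Its median log2 ratio was 1.15, against -0.23 for all genes at 5 CPM or more. Of the 12, 10 had their highest level of the 5 libraries on day 28.

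Promoters of class II genes can carry a conserved Y box, here searched as TGATTGG on both strands in the 250 bases before the annotated start. RefSeq promoters of GRCm38.p6 were matched for 12 of the 17 listed genes, and 8 of the 12 had the box, against 7.23% of all 32851 promoters of that table (2375). The 8 included Rfx5, a regulator and not a class II chain, whose 2 matches were on the opposite strand. Ctss, H2-DMa, Ifi30 and Rfxank had no match. The 120 bases before the start are shown for 4 genes, a pair with very large ratios and a pair with small ones, with the box in capitals. They were read 5′ to 3′ on the gene's strand, at chr17:34287824-34287943 on the minus strand for H2-Aa and, on the plus strand, at chr17:34305747-34305866 for H2-Eb1, chr17:34153071-34153190 for H2-DMb1 and chr17:34238785-34238904 for H2-Ob.
H2-Aa: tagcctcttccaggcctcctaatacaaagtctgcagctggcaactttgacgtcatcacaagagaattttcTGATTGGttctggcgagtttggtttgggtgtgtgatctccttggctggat
H2-Eb1: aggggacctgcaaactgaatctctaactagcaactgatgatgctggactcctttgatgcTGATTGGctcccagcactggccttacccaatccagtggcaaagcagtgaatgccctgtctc
H2-DMb1: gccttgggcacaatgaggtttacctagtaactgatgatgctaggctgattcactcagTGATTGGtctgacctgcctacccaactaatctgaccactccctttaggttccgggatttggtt
H2-Ob: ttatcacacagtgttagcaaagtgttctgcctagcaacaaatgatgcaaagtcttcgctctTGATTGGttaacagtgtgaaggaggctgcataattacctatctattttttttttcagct
The box began 50, 61, 63 and 59 bases before the start in this order. A match of these letters is a description of the sequence and says nothing about binding in these cells.

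The classical class II chains came first. H2-Aa, the alpha chain of I-A (GRCm38 chr17:34282744-34287823, minus strand, protein coding), stood at 5.96 CPM in sham and 69.6, 40.5, 0.544 and 1189 CPM on days 1, 6, 14 and 28. The day 28 library was far above the other 4, and day 14 was the lowest. The ratio of day 28 to sham was 199, with a 95% interval of 179 to 223 (exact conditional binomial, counting error only), and the log2 ratio was 7.42. Its partner chain H2-Ab1 (chr17:34257689-34269419, plus strand) stood at 4.05, 30.6, 16.6, 9.79 and 635 CPM in the same order, a log2 ratio of 6.98. H2-Eb1, the beta chain of I-E (chr17:34305867-34316674, plus strand), stood at 3.24, 35.4, 16.6, 0.326 and 421 CPM. H2-Eb2 reached 22.6 CPM on day 28 from 0.15 CPM in sham. Cd74, the invariant chain that escorts class II molecules, stood at 26.4, 158, 78.3, 49.5 and 2144 CPM. For these chains the day 1 library was the second highest, below day 28 by a factor that the log2 ratios over sham show: 3.34 on day 1 against 7.42 on day 28 for H2-Aa.

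Ciita, the class II coactivator, stood on the same side as the chains. It stood at 1.24 CPM in sham and 7.95, 2.23, 1.20 and 104 CPM on days 1, 6, 14 and 28, a log2 ratio of 5.55. Rfx5, part of the complex that binds class II promoters, stood at 38.5 CPM in sham and 93.2 on day 28 (log2 ratio 1.25). Its partners Rfxap and Rfxank, both under 20 CPM and so not considered, had 0 and 46 counts on day 28. Their log2 ratios were -3.48 and -2.16. Among all genes at 5 to 20 CPM in sham, 55.1% were lower by a log2 ratio of 2 or more. The other considered members showed far smaller ratios than the chains. H2-DMa and H2-DMb1, the chains of the H2-M molecule that loads peptide, had log2 ratios of 1.00 and 0.21. H2-Ob, a chain of the H2-O molecule that holds H2-M back, had 1.10. Ifi30, a reductase that opens disulfide bonds of antigens, had 1.20. Ctss, the protease that cuts the invariant chain, was at 2893 CPM in sham and 2862 on day 28, a log2 ratio of -0.02. The 5 class II chain genes and Ciita were thus the 6 called members, and the loading and processing genes were not called. Markers of monocytes and dendritic cells were also higher on day 28, with values given below, and their part in the class II values was not tested.

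**Figure D3:**
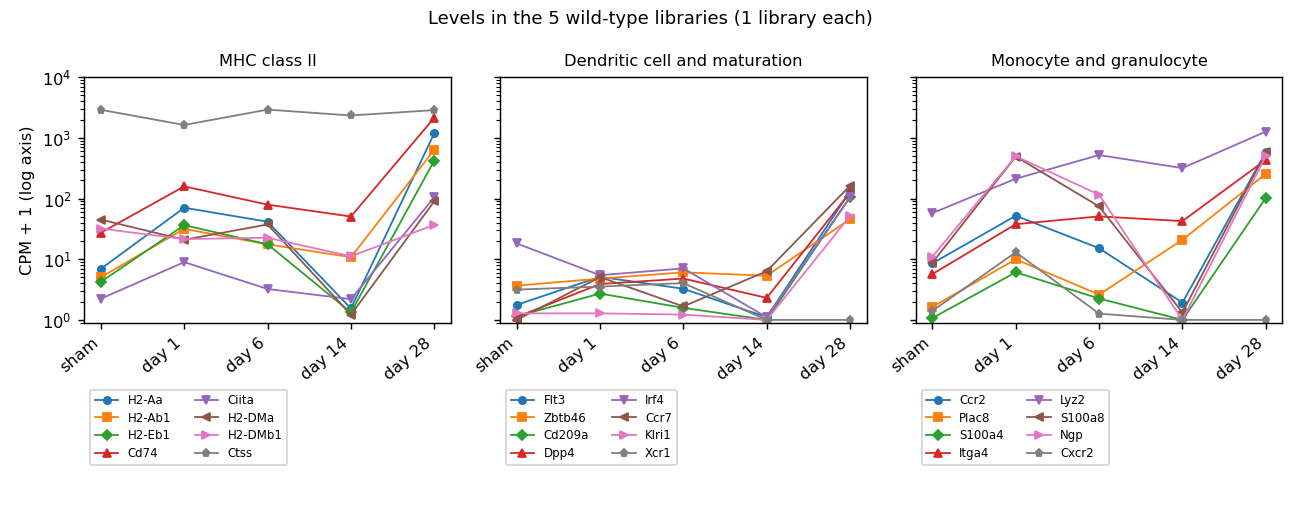
Levels (y axis, CPM + 1, log axis) of named genes in the 5 wild-type libraries (x axis, 1 library each), in 3 panels for MHC class II, dendritic cell and maturation, and monocyte and granulocyte genes. H2-Aa goes from 5.96 CPM in sham to 1189 CPM on day 28 while Ctss is at about the same level in both, and Xcr1 and Cxcr2 are at 0 on day 28.

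MHC class I genes, which show peptides to CD8 T cells, differed less. Of 22 listed genes 19 were at 20 CPM or more, 4 were higher and 1 was lower, with a median log2 ratio of 1.23. Over the 10 members at 100 CPM or more the median was 0.22, against 0.29 for all genes at that level. The classical gene H2-D1 stood at 31.5, 50.0, 104, 149 and 283 CPM from sham through day 28, and H2-Q4 at 47.0, 42.9, 108, 225 and 285 CPM. Both were above sham from day 6 on. Class I genes have near-identical copies, and H2-Q6, H2-Q7 and H2-T22 had no count in any of the 5 libraries, so how reads were split between copies is uncertain. Nlrc5, the class I counterpart of Ciita, stood at 9.18 CPM in sham and 52.7 on day 28, but it was already at 48.5 on day 6. Psmb9, a subunit of the immunoproteasome, went from 9.45 to 47.4 CPM, and Psme2, of the proteasome activator, had a log2 ratio of 1.87. The folding chaperone Calr had a log2 ratio of -0.68 and was not called. H2-M3, which shows formylated peptides, was the lower member, at 20.9 CPM in sham and 2.72 on day 28.

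Interferon-stimulated genes, antiviral genes switched on by interferons, showed 13 of 20 considered members higher and 1 lower, with a median log2 ratio of 2.40, and 3.86 over members at 100 CPM or more. Ifitm3, a membrane protein that blocks virus entry, stood at 8.40 CPM in sham and 62.0, 115, 239.8 and 441 CPM on days 1, 6, 14 and 28. Irf7, a transcription factor of the interferon response, stood at 6.11, 19.0, 44.6, 122 and 172 CPM. Both stood higher in each later library, with day 28 at the top. Oas2, which makes the messenger that activates RNase L, reached 139 CPM on day 28 from 1.99 in sham, and Mx1 reached 108 from 6.52. Isg20, Oasl2 and Slfn5 had log2 ratios of 5.49, 4.39 and 4.22. The list was not uniform: 5 members had no count on day 28, among them Isg15, Ifi44 and Iigp1, which were at 0.825, 1.26 and 1.11 CPM in sham, and the RNA sensor Ddx58 was at 59.8 CPM in sham and 1.23 on day 28. The median ratio to sham over list members at 5 CPM or more was 1.19 on day 1, 2.66 on day 6 and 2.92 on day 14, so the median was above 0 from day 1 on. The interferon-inducible genes Ifi203 and Mndal were among the 20 highest genes of all, at 243 and 171 CPM on day 28 from 1.24 and 0.918 CPM in sham.

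Genes of co-stimulation and dendritic cell maturation had 6 of 15 considered members higher and 0 lower, with a median of 1.58. Ccr7, the receptor that leads mature dendritic cells to lymph nodes (chr11:99144196-99155077, minus strand), had 0 counts in sham, 4.08 CPM on day 1, 0.67 on day 6, 5.33 on day 14 and 3688 counts on day 28, or 162 CPM. Relb, the NF-kB subunit of dendritic cell maturation, stood at 18.7 CPM in sham and 121 on day 28. Il12b, a chain shared by IL-12 and IL-23, and the chemokine Ccl22 reached 38.5 and 39.9 CPM from under 1 CPM in sham. Other genes of the same list had smaller ratios. Cd86 and Cd80, the classical ligands of CD28, had log2 ratios of -0.30 and 1.15, and the bundling protein Fscn1 had -0.58. Cd40, at 0.244 CPM in sham, had no count on day 28.

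Markers of dendritic cells, a list of 21 genes, were higher in 9 of 12 considered members and lower in 0, with a median log2 ratio of 3.46. Flt3, the growth factor receptor of the dendritic lineage, stood at 0.768 CPM in sham and 4.14, 2.26, 0.109 and 131 CPM on days 1, 6, 14 and 28. Zbtb46, a transcription factor of classical dendritic cells, stood at 2.66, 3.79, 5.07, 4.35 and 44.7 CPM. In both, day 28 stood alone and the other 4 libraries were under 6 CPM. The lectins Cd209a and Clec10a, found on dendritic cells of type 2, reached 105 and 28.9 CPM from 0.15 and 0.187 CPM. Dpp4, the peptidase CD26, reached 124 CPM from 0.112, Klri1 reached 50.5 from 0.281, and Kmo reached 43.2 from 0.0937. Irf4, a transcription factor of the type 2 lineage, was at 17.2 CPM in sham, between 0.109 and 6.05 CPM on days 1 to 14, and at 104 CPM on day 28. Itgax, the integrin CD11c, was at 11.1, 93.0, 43.0, 86.5 and 144 CPM. Of the 21 genes, 7 had no count on day 28. These included Xcr1 and Batf3 of type 1 dendritic cells, which were at 2.16 and 6.30 CPM in sham, while Clec9a of the same lineage was at 15.1 CPM, and Itgae, Ccr9, Clec4a4, Cd7 and Mgl2. The remaining considered members Cadm1, Wdfy4 and Naaa had log2 ratios of -0.24, 0.25 and -1.35. Whether these transcripts came from dendritic cells within the sort gate or from microglia was not tested.

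Monocyte markers gave the highest median of the lists, 5.35, with 14 of 15 considered members higher and 0 lower. The chemokine receptor Ccr2, which brings classical monocytes into tissue (chr9:124101950-124113557, plus strand), stood at 7.55 CPM in sham and 51.0, 14.2, 0.925 and 582 CPM on days 1, 6, 14 and 28. Plac8, high in circulating monocytes, stood at 0.637, 8.98, 1.61, 19.9 and 254 CPM. Itga4, the integrin subunit VLA-4 alpha, stood at 4.69, 36.8, 49.8, 41.5 and 433 CPM. In these genes day 28 was above day 1, the acute library. The summed level of the 20 listed genes was 232 CPM in sham and 2709, 2260.5, 2739 and 4431 CPM on days 1, 6, 14 and 28. Lyz2, lysozyme, made up 1266 CPM of the day 28 sum and Fn1, fibronectin, 757 CPM. On day 14 Fn1 alone was at 2095 CPM while Ccr2 was at 0.925 CPM. S100a4, Cd44 and Itgal had day 28 levels of 101, 210.4 and 71.8 CPM from 0.075, 2.55 and 0.675 CPM. F13a1, a marker of the same cells at 30.1 CPM on day 1, was at 1.76 CPM on day 28, and Treml4 and Ear2 had no count there.

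Neutrophil granule genes were high on days 1 and 28 in part. Of 7 considered members 6 were higher (median 5.11). S100a8, a chain of calprotectin, stood at 7.80 CPM in sham and 490.3, 73.0, 0.326 and 574 CPM on days 1, 6, 14 and 28, and Ngp, neutrophilic granule protein, at 10.1, 496, 115, 0 and 498 CPM. Both were at about their day 1 level on day 28 and near 0 on day 14. Ltf and Camp, of the secondary granules, reached 232 and 58.1 CPM from 6.92 and 0.45 CPM. Markers of mature neutrophils did not follow. Cxcr2 had no count on day 28. Il1r2 and Trem1, which were at 14.1 and 13.9 CPM on day 1, also had no count on day 28, and Retnlg and Mmp8, at 48.7 and 42.3 CPM on day 1, were at 0.0878 and 0.0878 CPM. Csf3r, the receptor for G-CSF, was at 654 CPM in sham and 616 on day 28, so it was high in sham where S100a8 and Ngp were low. The summed level of the 14 genes in the table was 713 CPM in sham and 3122 on day 28. Csf3r made up most of the sham sum, so the sum understates the difference in the other members.

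Markers of border-associated macrophages, which live in the meninges and around vessels, were at or near 0 for the most part. Of the 13 genes, 7 had no count on day 28, among them Lyve1, Cd163, Folr2 and Pf4. In sham 5 of the 13 had no count, and 4 had none in either library, Lyve1 and Pf4 among them. Over all genes, 9886 of 24421 had a count on day 28. Mrc1, the mannose receptor, was at 24.5 CPM in sham and 28.6 on day 28, and Stab1 at 822 and 247 CPM. Siglec1 and Clec12a were the higher members, at 43.5 and 87.4 CPM on day 28 from 1.74 and 0.825 CPM. Siglec1 had been higher still on day 6, at 61.7 CPM.

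Lymphocyte markers in the table were near 0 for T and NK cells, with scattered exceptions. The listed T cell receptor genes Trac, Trbc1 and Trbc2 were not in the table, so their levels are unknown. Of 20 T cell genes in the table, 15 had no count on day 28 and 7 had none in sham. Over all genes, 9886 of 24421 had a count on day 28. The defining genes Cd3e, Cd8a and Cd8b1 had none in either library, and 15 of the 20 were under 5 CPM in both. Lck, the kinase of the T cell receptor, stood at 25.3 CPM on day 28 from 1.18 in sham. Il7r was at 68.0 CPM in sham and 0.176 on day 28. Of 16 NK cell genes, 13 had no count on day 28 and 2 had none in sham, and 14 were under 5 CPM in both. Klrd1 was at 40.2 CPM from 2.72. Of the B cell and plasma cell list, the immunoglobulin genes Ighm, Ighd and Igkc were not in the table. That list had 3 higher members and 1 lower of 5 considered. The lower one was Bank1, a scaffold of B cell receptor signalling, at 83.8 CPM in sham and 12.2, 17.8, 6.26 and 14.6 CPM on days 1, 6, 14 and 28. Jchain, which joins antibody chains, went from 0 counts in sham to 2062 counts on day 28 (90.5 CPM), with 0.0447 CPM on day 6 and no count on days 1 and 14. Fcmr, the receptor for IgM, reached 50.8 CPM and Spib, a transcription factor of B cells and plasmacytoid dendritic cells, 38.9 CPM. Ms4a1, Cd79a and Pax5, low in sham as well, had no count on day 28 (log2 ratios -0.10, -0.78 and -0.15).

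Vascular genes separated day 28 from the 2 libraries before it. The summed level of 20 endothelial and mural markers was 317 CPM in sham and 874, 3825, 7652 and 32.3 CPM on days 1, 6, 14 and 28. Of 7 members considered, 6 were lower than in sham and 0 higher, with a median of -3.76 over members at 5 CPM or more. The 7 stood between 20.3 and 54.5 CPM in sham, a range where low calls were common, as 30.6% of genes at 20 to 50 CPM were lower. Pecam1, which encodes the CD31 that the cells were stained for, was at 54.5, 50.9, 232, 607 and 26.8 CPM, and Flt1, a VEGF receptor, at 44.3, 49.0, 240.2, 1320.0 and 1.32 CPM. Day 28 was the lowest of the 5 libraries in all 7 considered members. Markers of neurons and other glia were low in both libraries: their sum was 226 CPM in sham and 217 on day 28, and Gfap of astrocytes had no count in either. The 2 members at 20 CPM or more were the glutamate transporter Slc1a3, at 152 and 104 CPM, and Mbp, at 35.5 and 89.5 CPM.

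The lowest ratios among genes with at least 10 counts on day 28 belonged to 2 genes known from the choroid plexus, the tissue that makes cerebrospinal fluid. Enpp2, the enzyme autotaxin, stood at 301 CPM in sham and 1772, 232, 429 and 1.58 CPM on days 1, 6, 14 and 28, a log2 ratio of -6.87. Ttr, transthyretin, which that epithelium secretes, stood at 305, 2378, 262, 575 and 1.93 CPM, a log2 ratio of -6.71. Both stood at 231.9 CPM or more in each of the other 4 libraries. The other 18 of the 20 lowest genes stood between 65.0 and 133 CPM in sham. Of the 20, 18 were at 20 CPM or more on each of days 1, 6 and 14. They included Irf2bpl, at 133 CPM in sham and 0.439 on day 28, the histone chaperone subunit Ubn1, at 124 and 0.79, and the lamin-processing protease Zmpste24, at 108 and 0.614.

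Homeostatic genes of microglia stood below sham as a group, but less far below than on day 1. All 29 members were at 20 CPM or more, 4 were lower (background 15.2%) and 0 higher, 26 had a ratio below 0, and the median was -1.16. At 100 CPM or more, a level that 27 of the 29 reached, 3.15% of all genes were lower. The median ratio to sham was -2.28 on day 1, -0.97 on day 6 and -1.55 on day 14. Their summed level was 58238 CPM in sham, 15139 on day 1 and 29021 on day 28. P2ry12 stood at 6022, 401, 1839, 1215 and 2963 CPM, a log2 ratio on day 28 of -1.02. Csf1r, the receptor for CSF1 and IL-34, stood at 8649, 2676, 4998, 2657 and 3590.4 CPM, and the identity factor Sall1 at 1523, 269, 791, 366 and 883 CPM. In P2ry12 and Sall1 the day 28 library was the closest to sham of the 4 stroke libraries.

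Members differed in how far below sham they stood on day 28. Siglech, a sialic acid lectin, stood at 939 CPM on day 28 and 1275 in sham, after 144 on day 1, and the protease inhibitor Cst3 at 4624 and 6025 CPM, with log2 ratios of -0.44 and -0.38. Tgfbr1, a receptor chain for TGF-beta, had -1.06. P2ry13, an ADP receptor, stood further down at -1.55, Slco2b1 at -1.55 and Selplg at -1.46, and the fructose transporter Slc2a5 had -1.97. Of the 4 lower genes, Tmem119 and Rtn4rl1 both had -2.38. Jam2, a junctional adhesion molecule, was at 152 CPM in sham, 139 on day 6, 306 on day 14 and 3.25 on day 28. Upk1b was at 67.6 and 0.176 CPM. Jam2 is also expressed by endothelial cells, whose summed markers were also highest on day 14 and lowest on day 28. On day 6 that sum was 3825 CPM against 317 CPM in sham, while Jam2 was slightly below its sham level. The part of endothelial cells in the Jam2 values was not tested. The 3 genes above 0 were Adora3, an adenosine receptor, at 43.1 CPM in sham and 129 on day 28, Ltc4s, of leukotriene synthesis, with 0.40, and Bin1 with 0.02.

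**Figure D4:**
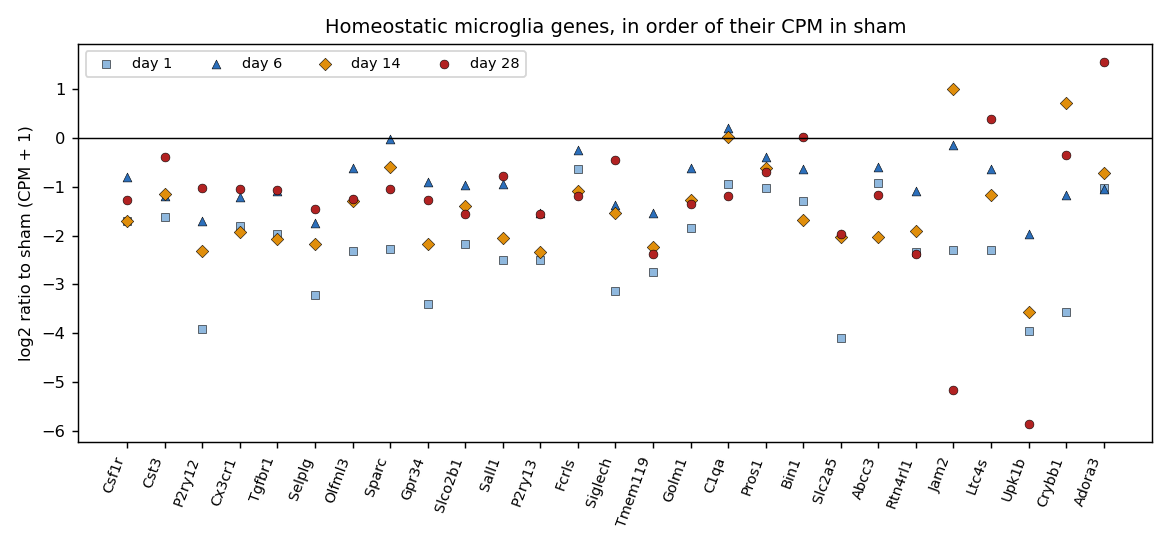
Log2 ratio to sham (y axis, CPM + 1) of 27 of the 29 homeostatic genes, in order of their sham level (x axis), with 1 symbol per stroke library. On day 28 24 of the 27 points lie below 0, and Jam2 and Upk1b lie lowest at -5.17 and -5.87.

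Transcription factors of microglia and macrophages stood closer to sham. Of 26 considered members 3 were higher and 0 lower (median -0.31). Bhlhe40, a repressor active in macrophages, stood at 6.20 CPM in sham and 47.9, 83.8, 229 and 223 CPM on days 1, 6, 14 and 28, and the nuclear receptor Nr4a1 at 16.6, 82.8, 67.0, 331 and 247 CPM. Both stood below their day 14 level on day 28. Maf and Fli1 had the lowest ratios, -1.99 and -1.83. Spi1, the macrophage master factor PU.1, was at 155 CPM in sham and 79.6 on day 28, and Irf8 at 394 and 505.

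The disease-associated program, a set of genes that microglia turn on around plaques, debris and injury, had 15 of 27 considered members higher and 0 lower, with a median of 2.72. Day 28 was the highest of the 5 libraries in 4 of the 27. Cst7, the inhibitor cystatin F, stood at 3.77 CPM in sham and 21.1, 135, 317 and 172 CPM on days 1, 6, 14 and 28. Clec7a, the lectin dectin-1, stood at 20.0, 106, 213, 275 and 180.4 CPM, and Axl, a receptor for apoptotic cells, at 10.7, 44.3, 209.8, 186 and 148 CPM. These 3 stood between sham and their highest library on day 28. Lgals3, galectin-3, and Cybb, of the NADPH oxidase, had a dip: Cybb was at 7.12, 385, 99.5, 30.0 and 242 CPM, and Lgals3 at 0.637, 169, 24.8, 21.2 and 69.7 CPM. Itgax, Lyz2, Ccl6 and Tyrobp were the members with their top level on day 28, and Itgax and Lyz2 are also markers of dendritic cells and monocytes. Trem2, the receptor that the program depends on, had a log2 ratio of -0.11, and Cd9, Ctsb and Cd68 had -0.10, -0.18 and -0.29.

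Genes of lipid handling were split, with 6 of 18 considered members higher and 1 lower. The median was 0.25, and -0.08 over members at 100 CPM or more. Apoe, the main lipid carrier of the brain, stood at 130.3, 195, 6183, 3862 and 2513 CPM, so day 28 was below days 6 and 14 and 19.3 times sham (95% interval 18.8 to 19.8, counting error only). Plin2, which coats lipid droplets, was at 15.5 CPM in sham, 399 on day 1 and 172 on day 28, and the scavenger receptor Msr1 at 2.17, 755 and 47.7 CPM. The exporters Abca1 and Abcg1 had log2 ratios of -0.29 and -0.67. Acsl1, which activates fatty acids, was at 64.3 CPM in sham and 1.14 on day 28. Phagocytic receptors as a list had a median of -0.11, with 3 of 14 higher and 1 lower, and with another scaling (RLE), which moved the median of all considered genes by 0.12, the list's median was 0.01. Mertk, a receptor for apoptotic cells, had -0.23. Growth and repair factors had 4 of 8 higher and 0 lower. Vegfa, which promotes vessel growth, was at 2.61 CPM in sham and 39.6, 3.98, 1.20 and 60.2 CPM on days 1, 6, 14 and 28, and Osm, an IL-6 family cytokine, at 41.4, 209, 51.6, 58.2 and 319 CPM. Igf1 stood at 2.36 CPM in sham, 231 on day 6 and 29.5 on day 28.

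Inflammatory cytokines lay on both sides of sham. Of 12 considered members 6 were higher and 2 lower. The median was 0.42 over the 18 members at 5 CPM or more, 2.30 over the 13 with 10 counts or more in both libraries and 2.92 over the 7 at 100 CPM or more. Il1b, a main interleukin-1 cytokine, stood at 4.78 CPM in sham and 83.7, 20.1, 26.0 and 232 CPM on days 1, 6, 14 and 28. Tnf stood at 29.7, 252, 86.9, 111 and 258 CPM, so days 1 and 28 were the 2 high libraries and close to each other. Ptgs2, the prostaglandin enzyme COX-2, stood at 9.30 CPM in sham, 524 on day 1 and 245 on day 28. Il18 and Casp1, the cytokine and the protease that matures it, stood on the other side, at 32.1 and 33.1 CPM in sham and 0.79 and 5.35 CPM on day 28. These were the 2 lower members, against a background of 15.2%. Both were at 20 to 50 CPM in sham, where 30.6% of all genes were lower on day 28. Il6 and Nos2 had no count on day 28. Nlrp3, the inflammasome sensor, had a log2 ratio of 0.65, and Il1rn, the receptor antagonist that reached 395 CPM on day 1, was at 13.7 CPM on day 28.

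Genes of NF-kB feedback showed 5 of 18 members higher and 2 lower. Tnip3, an inhibitor of NF-kB signalling, reached 82.5 CPM on day 28 from 0.075 CPM in sham, and Traf1 reached 37.9 from 1.69. Nfkbib went from 22.5 to 220.3 CPM, while its paralog Nfkbie went from 44.4 to 1.84 CPM. Chemokine ligands had 3 of 9 higher and 0 lower, and all 9 had a ratio above 0. Ccl2, which draws monocytes through Ccr2, stood at 72.6, 173, 149.7, 77.0 and 392 CPM. Ccl3 stood at 478, 1554, 793, 1049 and 2132 CPM. Day 28 was the highest library for both. Cxcr4, the receptor for Cxcl12, was at 2.21 CPM in sham and 40.6 on day 28, and Ccr1 at 8.79 and 60.2 CPM.

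Immediate early genes, which respond within minutes to stimulation and to cell isolation, had 5 of 23 considered members higher and 0 lower, with 20 ratios above 0 and a median of 1.08. Fos stood at 718 CPM in sham and 985, 1762, 2199 and 3161 CPM on days 1, 6, 14 and 28, and Egr1 at 1061, 1271, 1425, 2687 and 3468 CPM. In both, the levels went up from library to library and day 28 was the highest. Jun, at 4762 CPM in sham and 8757 on day 28, had a log2 ratio of 0.88. Heat shock chaperones, another group tied to handling and stress, had 0 of 16 higher and 1 lower, with 12 above 0 and a median of 0.83. Hsp90aa1 stood at 741 CPM in sham, between 433 and 907 on days 1 to 14, and at 2274 on day 28. Hspa1a and Hspa1b, near-identical copies whose reads may be split, were at 953 and 1022 CPM on day 28 and 284 and 289.7 in sham. The medians of both groups were above 0, and the part of handling and stress in the cytokine and chemokine values was not tested.

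Lysosomal genes and most complement and Fc receptor genes were not called. The lysosome list had 34 considered members, 0 higher and 0 lower, with a median log2 ratio of -0.26. Gaa, acid glucosidase, had the lowest ratio of them at -1.22. The 3 chains of C1q, the starter of the classical complement pathway, stood below sham: C1qa had -1.19, C1qb -0.70 and C1qc -0.64. C3, the central complement component that stood between 47.8 and 52.3 CPM on days 1 to 14, was at 3.15 CPM in sham and 3.77 on day 28. Fcgr3 had -0.18 and Fcgr2b 0.01, while Fcgrt, the neonatal Fc receptor, was at 46.8 CPM in sham and 1.76 on day 28. Among pattern recognition receptors 4 of 18 were higher and 4 lower. Clec4d and Clec4e, linked lectins that bind mycobacterial glycolipid, reached 56.9 and 56.0 CPM from 0.0937 and 0.262 CPM, levels above those of day 1 (31.2 and 35.9 CPM). Tlr3 was at 239 CPM in sham and 49.8 on day 28, Tlr5 at 51.9 and 2.37, and Tlr6, with 2629 counts in sham, had no count.

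Genes of the cytosolic ribosome stood above sham together, most by less than the size rule asks. Of 75 considered members 71 had a ratio above 0 and 57 above 1, but 11 passed the size rule and 0 were lower. The median log2 ratio was 1.32, with the middle of the list between 1.02 and 1.82 (quartiles), against a median of 0.29 for all genes at 100 CPM or more. The summed level was 7451 CPM in sham and 12407, 12854, 13308 and 18821 CPM on days 1, 6, 14 and 28. Rps24 stood at 172, 262, 311, 449.5 and 818 CPM. Ribosomal protein genes have many processed pseudogenes, so how their reads were assigned is uncertain. Nuclear genes of oxidative phosphorylation, the mitochondrial energy chain, scattered widely instead: 4 of 33 were higher and 8 lower, with ratios from -4.95 to 3.49. The background shares were 11.1% and 15.2%. Most of these genes were at modest levels, as 5 of the 49 listed reached 100 CPM in 1 of both libraries. Among all genes at 20 to 50 CPM in sham, 30.6% were lower, so the scatter may not be particular to the list. Uqcrc1, of complex III, was at 62.2 CPM in sham and 1.76 on day 28, whereas Uqcrh of the same complex was at 25.2 and 108 CPM. Ndufb9, a subunit of complex I, had the highest ratio of the list, 3.49.

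Of 12 considered cell cycle genes, 4 were higher (background 11.1%) and 1 was lower. A ratio above 0 was seen in 9 of the 12, and the list's median was 0.93. Mki67, a marker of dividing cells, was at 18.7, 43.6, 296, 101 and 217 CPM, a log2 ratio of 3.47, and Ccna2 and Kif23 were higher too, at 50.6 and 61.6 CPM from 2.77 and 2.01. Yet 17 of the 35 listed genes had no count on day 28, and Top2a had 2 counts. Among the 17 were Cdk1, Ccnb1, Cenpe, Cenpf and Plk1, with log2 ratios of -1.36, -0.25, -2.50, -2.55 and -0.68. Of the 35, 19 were under 5 CPM in both libraries. Such zeros were common in this library, where 9886 of 24421 genes had a count. Among all genes at 1 to 5 CPM in sham, 63.1% had no count on day 28. On day 6, Cenpf and Top2a were at 47.7 and 79.5 CPM. Cholesterol synthesis genes, 20 in the list, had 7 at 0 on day 28, 3 higher of 9 considered and 1 lower: Sqle was at 55.0 CPM from 4.87, and Msmo1, further along the same pathway, at 0.176 from 24.5. Housekeeping genes had a median of 0.17, with 1 of 19 higher and 0 lower. Actb was at 5144 CPM in sham and 5458 on day 28, and Ppia at 125 and 61.9.

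**Figure D5:**
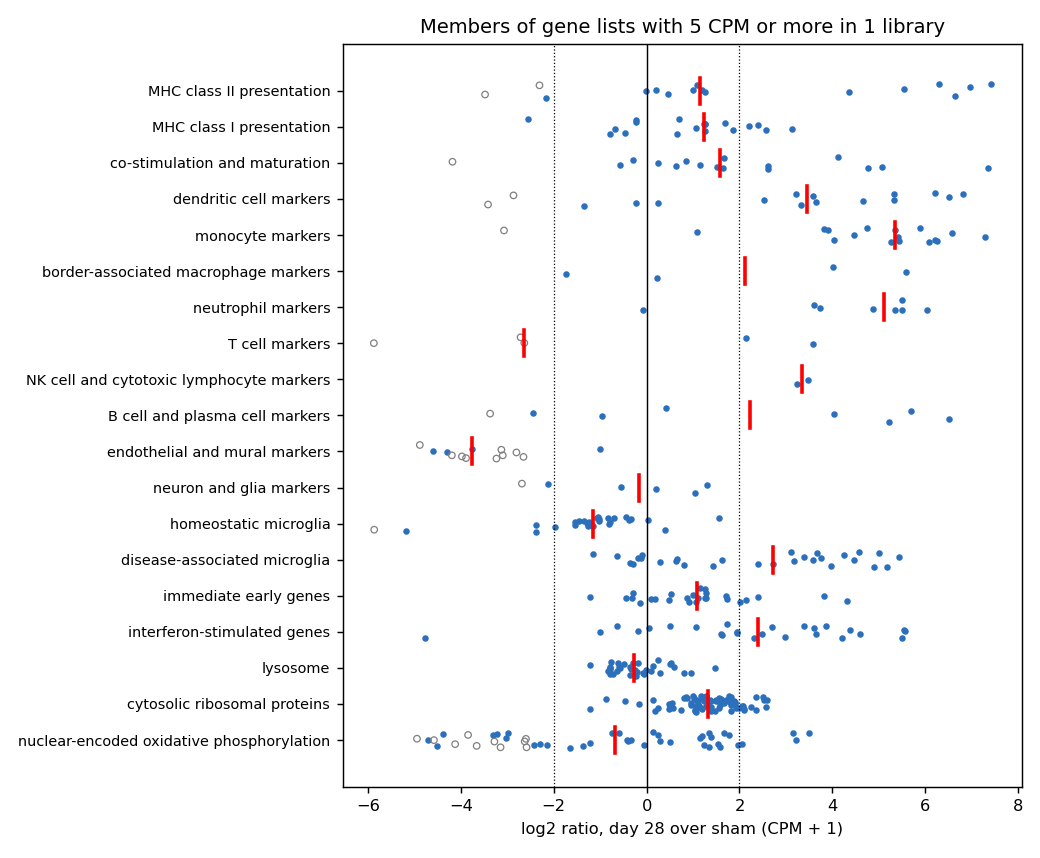
Log2 ratio of day 28 over sham (x axis, CPM + 1) of each member of 19 gene lists with 5 CPM or more in 1 of both libraries, with open points for genes under 10 counts on day 28, red bars for list medians and dotted lines at a log2 ratio of 2 in size. The monocyte median lies at 5.35 and the endothelial one at -3.76, lysosomal genes lie within the dotted lines, and oxidative phosphorylation genes spread over both sides.

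Of all genes, the 20 with the highest ratios each had their top level of the 5 libraries on day 28, which this ranking favors. The first was Plbd1, a phospholipase-like protein of myeloid granules (chr6:136612070-136661928, minus strand), at 1.57 CPM in sham and 39.5, 7.15, 3.48 and 477 CPM on days 1, 6, 14 and 28, a log2 ratio of 7.54. Arhgap15, a Rac regulator of leukocytes, stood at 1.69, 9.20, 7.75, 3.16 and 275 CPM. Gda, guanine deaminase, stood at 1.11 CPM in sham, 85.0 on day 1 and 181 on day 28. The rest held class II, monocyte, dendritic cell and interferon-inducible genes, Jchain and Tnip3, all named above, with AI607873 at 422 CPM and the ion transporter Slc4a8 at 82.1 CPM.

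At the top of the level range few genes were called. Of 344 genes with 500 CPM or more in 1 of both libraries, 16 were higher and 1, Tmem119, was lower, and 5% to 95% of their log2 ratios spanned -1.27 to 1.95 around a median of 0.12. The 16 were Klf4, Fos, Ccl3, Rps24, Fn1, Iqgap1, Apoe, Lyz2, Ahnak, Vim, S100a9, S100a8, Ccr2, Cd74, H2-Ab1 and H2-Aa. Of these, Iqgap1, Ahnak and Vim, a scaffold, a giant membrane-linked protein and the intermediate filament vimentin, fell outside the rule for named genes and were chosen after their values were seen. Vim stood at 20.9 CPM in sham and 565, 585, 709.9 and 732 CPM on days 1, 6, 14 and 28. Ahnak stood at 56.7, 444, 798, 2047 and 1587 CPM, and Iqgap1 at 37.0, 685, 285, 550.4 and 629.8 CPM. All 3 were above sham in each of the 4 stroke libraries.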

How the data were processed

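Sorted microglia gave RNA for Ovation SoLo libraries, which were run on a HiSeq 2500, per the labels' protocols. The authors deposited a table of raw read counts for 24421 genes, not normalized. STAR, featureCounts, edgeR, mm10 and GRCm38 are named in the submitters' processing notes, without versions or roles. Sample titles gave the groups, and 0 columns stayed unused. The 27 genes with date-like names count toward library sizes but are not named.

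From the counts, TMM factors were computed with edgeR 4.0.16 (R 4.3.3) over the 7 libraries of the table. A pseudocount of 1 CPM was added before log2 ratios were taken, so ratios of low genes are understated. No test was run with 1 library per group. List medians used members with 5 CPM or more in 1 of both libraries. Ratio intervals are exact (Clopper-Pearson, 95%) and cover counting error only. Counts from 1 to 20 were even in 88.3% of cases on day 28 and 76.5% in sham. If both mates of a fragment were counted, the intervals are too narrow. Positions and transcript lengths came from GENCODE M21 (GRCm38), and promoters from RefSeq GRCm38.p6.

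The rule named 11 fixed genes, all members of 3 lists at 20 CPM, up to 8 members of each other list with the largest ratios, and the 20 highest and 20 lowest genes (lower ones only with 10 counts or more on day 28), 272 in all. A further 64 genes were named after their values were seen. Some genes are not reported here by name, but they count toward the lists. The members and the 34 lists were chosen with earlier results of these data known. Alternatives covered the scaling, pseudocount, level minimum and ratio threshold.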

Additional observations from a re-analysis of the deposited data

How the results depend on the processing

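Results were recomputed with other scalings, pseudocounts, minimums and thresholds. No named gene that was called higher or lower changed its sign. The counts of 845 higher and 1158 lower genes depended on the level asked for: a minimum of 50 CPM gave 465 higher and 352 lower, a minimum of 5 CPM gave 2970 lower, and 10 counts or more in both libraries gave 628 lower. A log2 ratio of 3 left 424 higher. A minimum of 100 CPM, chosen after seeing the data, gave 226 higher and 89 lower. The higher share of all calls was 42.2% as reported, 24.9% at 5 CPM, 56.9% at 50 CPM, 56.1% with 10 counts in both and 71.7% at 100 CPM. The MHC class II median of 1.15 became 2.81 over members at 20 CPM and 6.29 over members at 100 CPM, the latter chosen after seeing the data. The dendritic cell median of 3.46 became 2.49 with a pseudocount of 5 CPM, 4.15 over members at 20 CPM and 2.53 over all members. The medians of homeostatic, disease-associated and ribosomal genes stayed within 1.5 times their reported value under every setting run for them. RLE scaling moved the median of all considered genes by 0.12 and the higher share to 46.9%. Of 336 named genes, 5 that were not called changed sign with the scaling: with RLE, Trem2 became 0.01 from -0.11, Cd9 0.03 from -0.10, Ctss 0.11 from -0.02 and Csf3r 0.04 from -0.09, and with total counts Fcgr2b became -0.0017 from 0.01. A pseudocount of 5 CPM moved 126. The other printed list medians were recomputed after seeing the data. RLE scaling took the phagocytic receptor median from -0.11 to 0.0106, transcription factors from -0.31 to -0.18, lysosome from -0.26 to -0.14, lipid handling from 0.25 to 0.37 and housekeeping from 0.17 to 0.29. Over members at 100 CPM, lipid handling became -0.0789, class I 0.22 from 1.23, cytokines 2.92 from 0.42, interferon-stimulated genes 3.86 from 2.40, transcription factors -0.20 and housekeeping 0.29. With 10 counts in both libraries cytokines became 2.30 and lipid handling 0.12. No paired analysis was possible because each group has 1 library, and for the same reason no library could be left out.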
